A study of Mus musculus with 8 samples.

Results

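Cytosolic ribosomal protein genes were selected from the deposited table by their names. The rule took symbols that start with Rpl or Rps followed by a digit, together with Rplp0, Rplp1, Rplp2 and Rpsa, and dropped the ribosomal protein S6 kinases and names marked as pseudogenes. It found 86 of the 25766 entries of the table. The rule itself used no measured value, but the family was chosen with earlier results of these data known. By name, 46 belong to the large subunit and 31 to the small subunit. The other 9 are paralogs and further names, namely Rpl3l, Rpl7l1, Rpl10l, Rpl22l1, Rpl36al, Rpl39l, Rps27l, Rps27rt and Rps19bp1. Rps19bp1 encodes a protein that binds Rps19 and is not itself a ribosomal protein.

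RNA-seq was performed on 8 whole tumors that grew under the skin of female mice after injection of MC38-OVA cells, a colon tumor line of the mouse that makes ovalbumin as a model antigen. The 4 shXBP1 tumors came from cells with a hairpin against Xbp1, the transcription factor of the IRE1 branch of the unfolded protein response, and the 4 shNT tumors from cells labelled shNT. The host strain is given as C57BL/6J in one label and spelled differently in another. Tumor cells of both groups share the ovalbumin line, and the labels place the hairpin in the injected cells, not in the host. The labels do not say how many hairpins or clones stand behind each group, or that each tumor came from a separate mouse, and the p-values therefore cover only the spread among these 8 samples. Xbp1 itself had 77.2, 75.99, 73.7 and 56.6 CPM in the shXBP1 tumors, against 97.3, 96.05, 103 and 109 CPM in the shNT tumors, with no overlap (log2 fold change -0.51 ± 0.10 SE, adjusted p 0.00255, edgeR quasi-likelihood test). The label of colon adenocarcinoma cell was checked against 10 epithelial and colon genes. Their summed level was 14.0 to 16.4 CPM in shXBP1 tumors and 10.0 to 12.3 CPM in shNT tumors, with Cdx1 and Cdx2 at 0 in all 8 tumors. Of the 4 that were tested, 1 (Lgals4) was called higher in shXBP1 tumors, beside 16.9% of all genes tested.

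Ribosomes are built from ribosomal RNA and a fixed set of proteins that are made in near-equal amounts. In mammals most of these proteins are encoded by a single active gene each, scattered over the genome and accompanied by many processed pseudogenes. Their mRNAs begin with a terminal oligopyrimidine (TOP) tract, a run of C and T at the very start of the transcript, through which mTORC1 and the RNA-binding protein Larp1 adjust their translation and stability. Production of ribosomal proteins is tied to growth and to Myc, and free ribosomal proteins such as Rpl5 and Rpl11 can bind Mdm2 and thereby stabilise p53.

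The start of the transcript is shown first, since the TOP tract is the sequence these mRNAs are known for. RefSeq windows (build GRCm38.p6) were found for 66 of the 86 genes, 78 windows in all. Each sequence below holds 30 bases on the gene's strand, with the annotated start as base 16, and the longest pyrimidine run is in capitals. The first 5 genes were called lower in shXBP1 tumors and the last 3 were not.
Rps10: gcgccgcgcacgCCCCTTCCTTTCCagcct
Rps6: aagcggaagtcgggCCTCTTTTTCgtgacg
Rps18: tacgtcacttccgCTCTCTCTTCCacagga
Rpl14: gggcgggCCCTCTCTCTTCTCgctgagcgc
Rpl5: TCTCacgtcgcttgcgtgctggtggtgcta
Rps27: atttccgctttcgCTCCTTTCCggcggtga
Rpl38: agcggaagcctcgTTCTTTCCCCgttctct
Rpl22l1: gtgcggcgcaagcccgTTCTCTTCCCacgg
The Rps10 window lies at chr17:27635230-27635259 on the minus strand, and that of Rps6 at chr4:86857353-86857382, also on the minus strand. Rps18 starts within chr17:33955651-33955680 (minus strand) and Rpl14 within chr9:120571502-120571531 (plus strand). The window of Rpl5 is chr5:107900513-107900542 on the plus strand, that of Rps27 chr3:90213634-90213663 on the minus strand, that of Rpl38 chr11:114668565-114668594 on the plus strand and that of Rpl22l1 chr3:28805493-28805522 on the plus strand. Pyrimidine runs of 9 to 14 bases lie across or beside the annotated start of 7 of these 8 genes. In the Rpl5 window the longest run is 4 bases, but the edge of the window cuts it. The bases just before the window are also pyrimidines and lengthen this run to 9 bases. These 8 windows are a selection and do not stand for the family. Within their 30 bases, short longest runs were found in Rpl10 and Rpl23 (3 bases each) and Rps4x (4 bases), all called lower. Rpl11 and Rpl41, which were not called, had 3 bases each.

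A C at the annotated start followed by at least 4 further pyrimidines was found in 14 of the 78 windows (17.9%), against 2.51% of all 32851 RefSeq windows. A looser form, at least 8 pyrimidines in a row within 20 bases of the start, was found in 35 of the 78 (44.9%), against 21.2% of all windows. The looser form was present in 20 of 37 windows of genes called lower and in 15 of 38 windows of tested genes that were not called, and the strict form in 7 windows of each kind. Further motifs were searched on both strands of the 250 bases before the start in each window. CCGGAA, the ETS core to which GABP binds, was present in 27 of the 78 windows (34.6%), against 12% of all windows. GGGCGG, the Sp1 core, was found in 48.7%, against 32.7% of all windows. The E-box CACGTG, to which Myc and other factors bind, was present in 8.97%, against 6.02% of all windows. CCACG, one part of the endoplasmic reticulum stress element, was in 37.2%, against 28.3% of all windows, and it can overlap the E-box. TGACGTGG, the core of the unfolded protein response element to which XBP1 binds, was in 0 of the 78 windows, against 0.563% of all windows. These counts describe letters in the windows only.

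Ribosomal protein mRNAs were lower in shXBP1 tumors as a family. The 86 genes took 5.96%, 6.50%, 6.12% and 5.69% of all counts in the shXBP1 tumors, against 8.67%, 6.89%, 7.64% and 8.11% in the shNT tumors. The 2 groups did not overlap, and the mean was 6.07 ± 0.34% in shXBP1 tumors and 7.83 ± 0.755% in shNT tumors (SD, n = 4 each), a ratio of 0.775. Total counts ranged from 29070605 to 36012997 per tumor, of which these genes received 1857513 to 2808093, so counting error is small for nearly all of them. In whole tumors, fewer cells of a type with many ribosomes and less of this RNA per cell cannot be told apart.

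**Figure D1:**
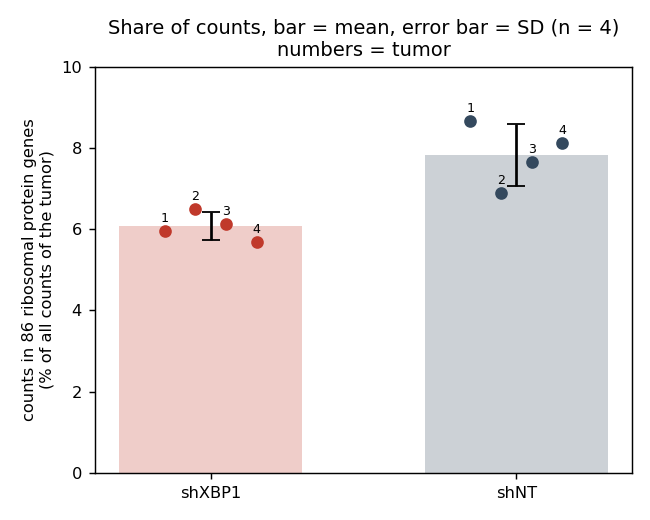
Share of all counts in the 86 ribosomal protein genes (percent, vertical axis) in shXBP1 and shNT tumors. Points are tumors with their number, bars are means and error bars are SD (n = 4). The shXBP1 tumors lie between 5.69% and 6.50%, all below the shNT tumors, and shNT tumor 2 at 6.89% is the lowest of its group.

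Of the 84 genes that passed the filter on low counts, 42 were called lower in shXBP1 tumors and 0 were called higher (edgeR quasi-likelihood test, two-sided, Benjamini-Hochberg adjustment over 14907 genes, threshold 0.05). Over all genes tested, 13.1% were called lower and 16.9% higher. At an unadjusted p under 0.05, 56 of the 84 were lower and 0 higher. The share of all genes at that unadjusted threshold was not computed, and the shares above do not apply to it. DESeq2 and limma voom called 49 and 42 lower, beside 15.2% and 13.1% of all genes, and 0 higher. The log2 fold change (shXBP1 minus shNT) was negative in 76 of 84 genes, with a median of -0.35 beside -0.01 over all genes tested. The quartiles of the genes were -0.44 and -0.24. Each of the 42 called genes fell by a modest amount, 18.8% to 40.9%, and no member reached a 2-fold decrease. In 33 genes every shXBP1 tumor lay below every shNT tumor, which was true of 13.6% of all genes tested. The reverse order was seen in 0 of them, and in 16.6% of all genes tested.

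Calls depended on single tumors in number but not in direction. Leaving out shXBP1 tumor 1, 2, 3 or 4 gave 36, 50, 37 and 37 genes lower, beside 9.49%, 9.7%, 8.99% and 15.9% of all genes tested. Leaving out shNT tumor 1, 2, 3 or 4 gave 34, 53, 34 and 35 lower, beside 9.86%, 8.9%, 8.57% and 11% of all genes. None of these 8 fits called a ribosomal protein gene higher, beside 13.6% to 19.2% of all genes. Among other settings, the fit with tumor number as a block called 32 lower, beside 8.75% of all genes. A fit without a filter on low counts called 41 of 85 lower, beside 8.31% of all genes.

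Genes of both subunits were called. In the large subunit 24 of 46 genes were called lower, with a median log2 fold change of -0.35, and in the small subunit 18 of 31, with a median of -0.37. The mean log2 CPM of small-subunit genes minus that of large-subunit genes was 0.04, 0.05, 0.04 and 0.00 in the shXBP1 tumors, against 0.03, -0.02, 0.03 and 0.01 in the shNT tumors. These differences overlapped between the groups. Of the paralogs and further names, 0 of 7 tested genes were called, and the sign was positive in 5.

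**Figure D2:**
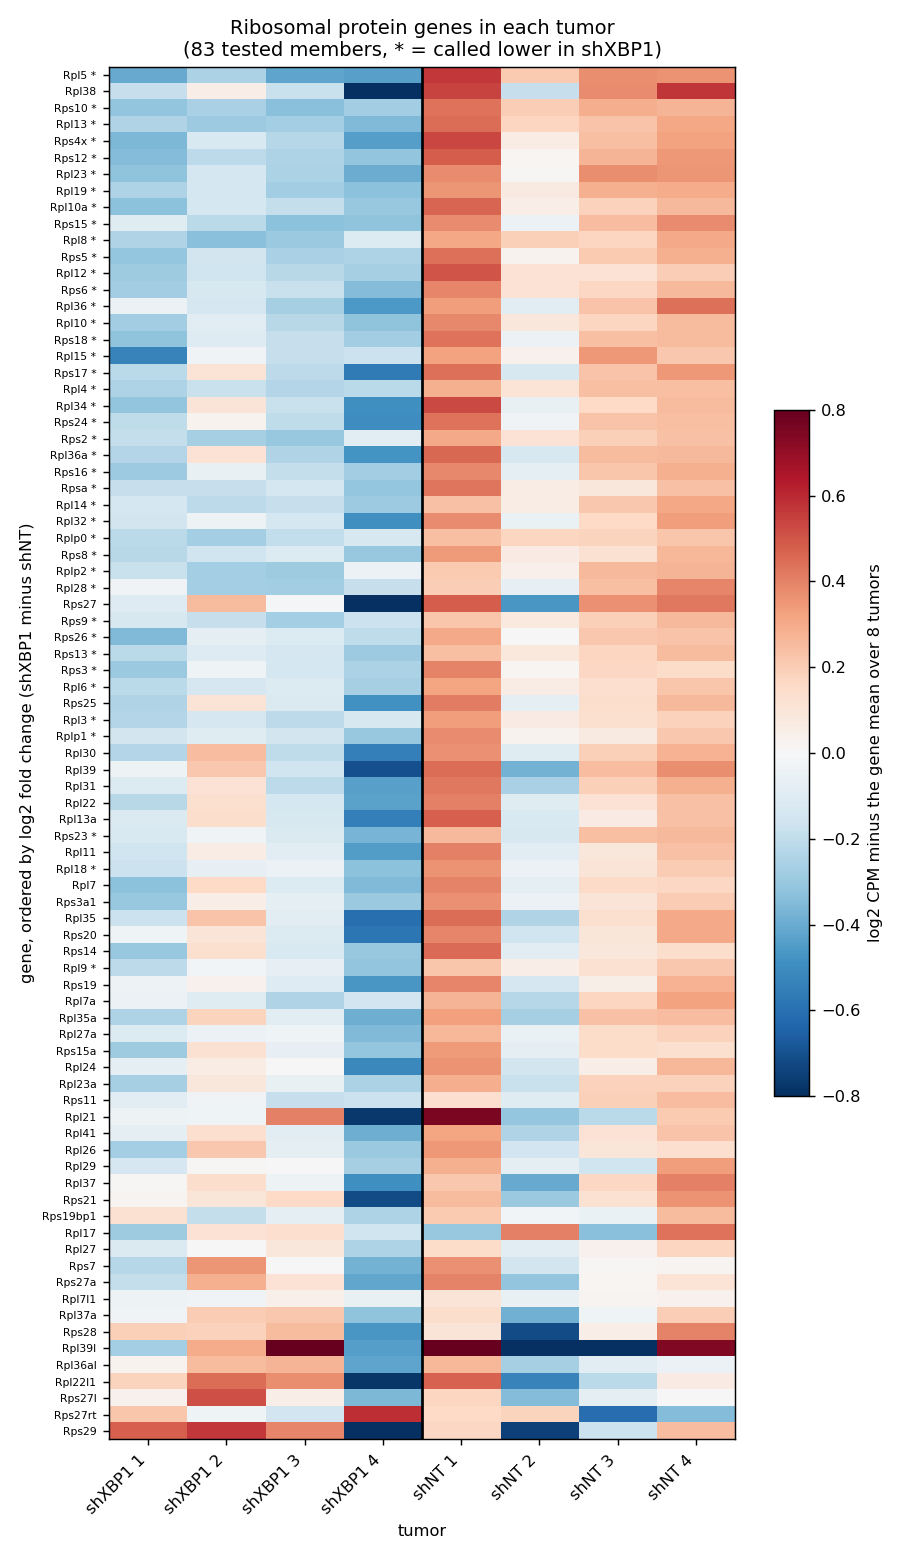
Log2 CPM of each of 83 tested genes minus its mean over the 8 tumors (colour, blue low and red high, with colours saturated at the ends of the scale), with shXBP1 tumors left of shNT tumors. Genes are ordered by log2 fold change and a star marks the 41 called lower in shXBP1. Most of the upper rows are blue in all shXBP1 tumors, while in most of the lower rows shXBP1 tumor 4 and shNT tumor 2 are the palest or bluest columns of their groups.

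Several other measured levels moved with the groups. The counts of called markers are to be read against 16.9% of all genes tested called higher and 13.1% called lower. Ptprc, the leukocyte antigen CD45, had 156, 193, 171 and 94.8 CPM in the shXBP1 tumors, against 59.4, 42.6, 66.5 and 56.4 CPM in the shNT tumors, with no overlap (log2 fold change 1.45 ± 0.22 SE, adjusted p 0.00128, edgeR). The summed level of 17 leukocyte markers ranged from 2397 to 4784 CPM in shXBP1 tumors and from 1464 to 2043 CPM in shNT tumors, and 15 of the 16 tested were called higher. The 8 fibroblast markers summed to 6130 to 8251 CPM in shXBP1 tumors, against 1908 to 3207 CPM in shNT tumors, and 6 of them were called higher. The 6 endothelial markers summed to 88.2 to 101 CPM in shXBP1 tumors, against 43.4 to 52.3 CPM in shNT tumors, and 3 were called higher. The 12 proliferation markers summed to 2728 to 3340 CPM in shXBP1 tumors and 3629 to 4021 CPM in shNT tumors, with 6 called lower. The 7 fat and skin markers summed to 50.2 to 57.0 CPM in shXBP1 tumors and 149 to 211 CPM in shNT tumors. Nearly all of this was Krt14, a keratin of basal skin cells, at 48.0 to 52.8 CPM in shXBP1 tumors and 147 to 208 CPM in shNT tumors, and of the 3 tested it alone was called. The other tested markers were Krt10 (log2 fold change 0.09 ± 0.27 SE, adjusted p 0.835, edgeR) and Plin1 (-1.86 ± 0.81 SE, adjusted p 0.105, edgeR). Plin1 was at most 0.694 CPM, and Krt5 did not pass the filter on low counts. Whether the amount of skin RNA differed between the groups was not tested. The 7 skeletal muscle markers overlapped between the groups, at 17.0 to 66.2 CPM in shXBP1 tumors and 12.3 to 42.5 CPM in shNT tumors. None of these markers but Cdx1 and Cdx2 was at 0 in every tumor.

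With Ptprc (log2 CPM) entered as a covariate, 28 ribosomal protein genes were called lower and 0 higher, beside 0.711% of all genes called lower and 0.899% called higher in that fit. The median log2 fold change was -0.80 there, but only 11 of the 28 were also called without the covariate, and the median SE was 0.22, against 0.11 without the covariate. Ptprc did not overlap between the groups, so this fit separates the group from the covariate poorly. Of the 6 genes with the largest decrease among those called, Rpl5, Rps4x and Rpl23 were called in it, and Rps10, Rpl13 and Rps12 were not. The part in the result of RNA from fibroblasts, endothelial cells, proliferating cells or cells with Krt14 was not tested.

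Among large-subunit genes the largest called decrease was in Rpl5 (chr5:107900502-107909005, plus strand, GRCm38), which binds the 5S ribosomal RNA. Rpl5 had 1133, 1259, 1119 and 1108 CPM in the shXBP1 tumors, against 2220.3, 1731, 1941 and 1923 CPM in the shNT tumors. Every shXBP1 tumor lay below every shNT tumor, and the level was 40.9% lower (log2 fold change -0.76 ± 0.09 SE, adjusted p 0.00015, edgeR). Its partner in the 5S particle is Rpl11. Rpl11 had 802, 934, 841 and 657 CPM in the shXBP1 tumors, against 1187, 839, 953 and 1054 CPM in the shNT tumors, which overlapped, and it was not called (log2 fold change -0.32 ± 0.13 SE, adjusted p 0.0744, edgeR). Whether Rpl5 and Rpl11 differed in their change was not tested.

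Rpl13 (chr8:123102350-123105244, plus strand), one of the more abundant ribosomal protein mRNAs per length, had 1561, 1511, 1527 and 1446 CPM in the shXBP1 tumors, against 2519, 2079, 2165 and 2293 CPM in the shNT tumors. The groups did not overlap, and Rpl13 was 33.3% lower (log2 fold change -0.58 ± 0.09 SE, adjusted p 0.000441, edgeR). Rpl23 (chr11:97777527-97782437, minus strand), whose protein lies in the body of the large subunit and can bind Mdm2, had 698, 790.1, 731 and 662 CPM in the shXBP1 tumors, against 1131, 879, 1130.1 and 1115 CPM in the shNT tumors. It was also lower without overlap, with shNT tumor 2 well under the other shNT tumors (log2 fold change -0.56 ± 0.10 SE, adjusted p 0.00144, edgeR). Rpl38 had the second most negative fold change of all the genes but was too variable to be called. Its levels were 149, 176, 149 and 85.4 CPM in the shXBP1 tumors, against 246, 149, 219.5 and 251 CPM in the shNT tumors, and shNT tumor 2 lay within the shXBP1 range (log2 fold change -0.63 ± 0.24 SE, adjusted p 0.0766, edgeR). Rpl38 is outside the rule for named genes and was chosen after its values were seen.

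The acidic stalk, on which elongation factors are activated, is built on Rplp0 (chr5:115559467-115563727, plus strand). Rplp0 had 2351, 2262, 2379.6 and 2493 CPM in the shXBP1 tumors, against 3224, 3080.2, 3086 and 3183 CPM in the shNT tumors, with no overlap and little spread (log2 fold change -0.41 ± 0.08 SE, adjusted p 0.00232, edgeR). Its partner Rplp1 (chr9:61913284-61914542, minus strand) had 1322, 1368, 1325 and 1186 CPM in the shXBP1 tumors, against 1904, 1495, 1542 and 1701 CPM in the shNT tumors. It too was lower in every shXBP1 tumor than in any shNT tumor (log2 fold change -0.35 ± 0.10 SE, adjusted p 0.0155, edgeR). Rpl3, a protein that reaches towards the peptidyl transferase centre, averaged 1261 ± 45.7 CPM in shXBP1 tumors and 1617 ± 132 CPM in shNT tumors (log2 fold change -0.36 ± 0.09 SE, adjusted p 0.00743, edgeR, no overlap, SD, n = 4 each). Rpl10, which joins the large subunit late in its maturation, averaged 963 ± 69.5 CPM in shXBP1 tumors and 1317 ± 117 CPM in shNT tumors (log2 fold change -0.45 ± 0.09 SE, adjusted p 0.00307, edgeR, no overlap).

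Other named large-subunit genes had lower means in shXBP1 tumors but overlapping values. Rpl13a, which in human cells leaves the ribosome after interferon-gamma treatment to repress translation of certain mRNAs, had 1538, 1830.4, 1522 and 1138 CPM in the shXBP1 tumors, against 2312, 1529, 1739 and 1953 CPM in the shNT tumors (log2 fold change -0.32 ± 0.15 SE, adjusted p 0.135, edgeR). Rpl7, a structural component of the subunit, averaged 1415 ± 240.4 CPM in shXBP1 tumors and 1758 ± 232 CPM in shNT tumors (log2 fold change -0.31 ± 0.13 SE, adjusted p 0.0864, edgeR). Rpl39, a very small protein that lines the exit tunnel, averaged 307 ± 76.6 CPM in shXBP1 tumors and 389 ± 89.5 CPM in shNT tumors (log2 fold change -0.34 ± 0.22 SE, adjusted p 0.276, edgeR). Rpl13a, Rpl7 and Rpl39 were not called.

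In the small subunit, Rps10 (chr17:27630418-27636669, minus strand) was separated between the groups with little spread. Rps10, which sits in the head of the subunit, had 437, 454, 431 and 448 CPM in the shXBP1 tumors, against 733, 623, 665 and 655 CPM in the shNT tumors. Every shNT tumor lay well above the shXBP1 tumors, and Rps10 was 33.9% lower (log2 fold change -0.60 ± 0.08 SE, adjusted p 0.000205, edgeR). Rps4x (chrX:102184941-102189394, minus strand), the X-linked form of Rps4, had 1357, 1602, 1489 and 1285 CPM in the shXBP1 tumors, against 2521, 1817, 2065 and 2179 CPM in the shNT tumors. Again no shXBP1 tumor reached the lowest shNT tumor, and Rps4x was 33.2% lower (log2 fold change -0.58 ± 0.11 SE, adjusted p 0.00221, edgeR).

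Rps12 (chr10:23785183-23787275, minus strand), another protein of the head, had 452, 498, 484 and 463 CPM in the shXBP1 tumors, against 803, 581, 696 and 733 CPM in the shNT tumors. The groups did not overlap (log2 fold change -0.57 ± 0.10 SE, adjusted p 0.00128, edgeR), but its reads may be shared with a near-identical copy. A table entry named Rps12-ps3 held 160382 counts over the 8 tumors, beside 151202 for Rps12 itself. With the counts of both added, the log2 fold change was -0.49 with an adjusted p of 0.0014 (edgeR).

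Rps6 (chr4:86854660-86857412, minus strand) is the substrate from which the S6 kinases take their name. Rps6 had 1094, 1213, 1172 and 1042 CPM in the shXBP1 tumors, against 1735, 1436, 1483 and 1585 CPM in the shNT tumors, which did not overlap (log2 fold change -0.46 ± 0.09 SE, adjusted p 0.00239, edgeR). Rps2, which lies at the mRNA entry side of the small subunit, averaged 2149 ± 140.4 CPM in shXBP1 tumors and 2879 ± 154 CPM in shNT tumors (log2 fold change -0.42 ± 0.09 SE, adjusted p 0.00317, edgeR, no overlap, SD, n = 4 each). Rpsa, also known as the laminin receptor, averaged 1932 ± 97.8 CPM in shXBP1 tumors and 2572 ± 308 CPM in shNT tumors (log2 fold change -0.41 ± 0.10 SE, adjusted p 0.00764, edgeR, no overlap). Rps23, a protein of the decoding centre, had 651, 695, 654 and 546 CPM in the shXBP1 tumors, against 845, 648, 837 and 846 CPM in the shNT tumors. It passed the threshold narrowly, and shNT tumor 2 lay inside the shXBP1 range (log2 fold change -0.32 ± 0.11 SE, adjusted p 0.0414, edgeR). The call of Rps23 was lost in 6 of the 8 fits that left out 1 tumor.

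Some small-subunit genes with short coding sequences overlapped between the groups. Rps27, a zinc-binding protein, had 329, 421, 352 and 184 CPM in the shXBP1 tumors, against 494, 256, 455 and 474 CPM in the shNT tumors, and its values overlapped widely (log2 fold change -0.38 ± 0.28 SE, adjusted p 0.352, edgeR). Rps28, which lies near the mRNA exit, had 211, 209, 220.3 and 134 CPM in the shXBP1 tumors, against 198, 112, 192 and 243 CPM in the shNT tumors (log2 fold change 0.05 ± 0.24 SE, adjusted p 0.888, edgeR). Rps29, a zinc-binding protein of the head, had the most positive fold change of the family and was named after its values were seen. It had 241, 256, 226 and 91.4 CPM in the shXBP1 tumors, against 194, 103, 153 and 205 CPM in the shNT tumors, and was not called (log2 fold change 0.32 ± 0.35 SE, adjusted p 0.549, edgeR). In Rps27, Rps28 and Rps29, shXBP1 tumor 4 was the lowest of its group and shNT tumor 2 the lowest of its own.

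**Figure D3:**
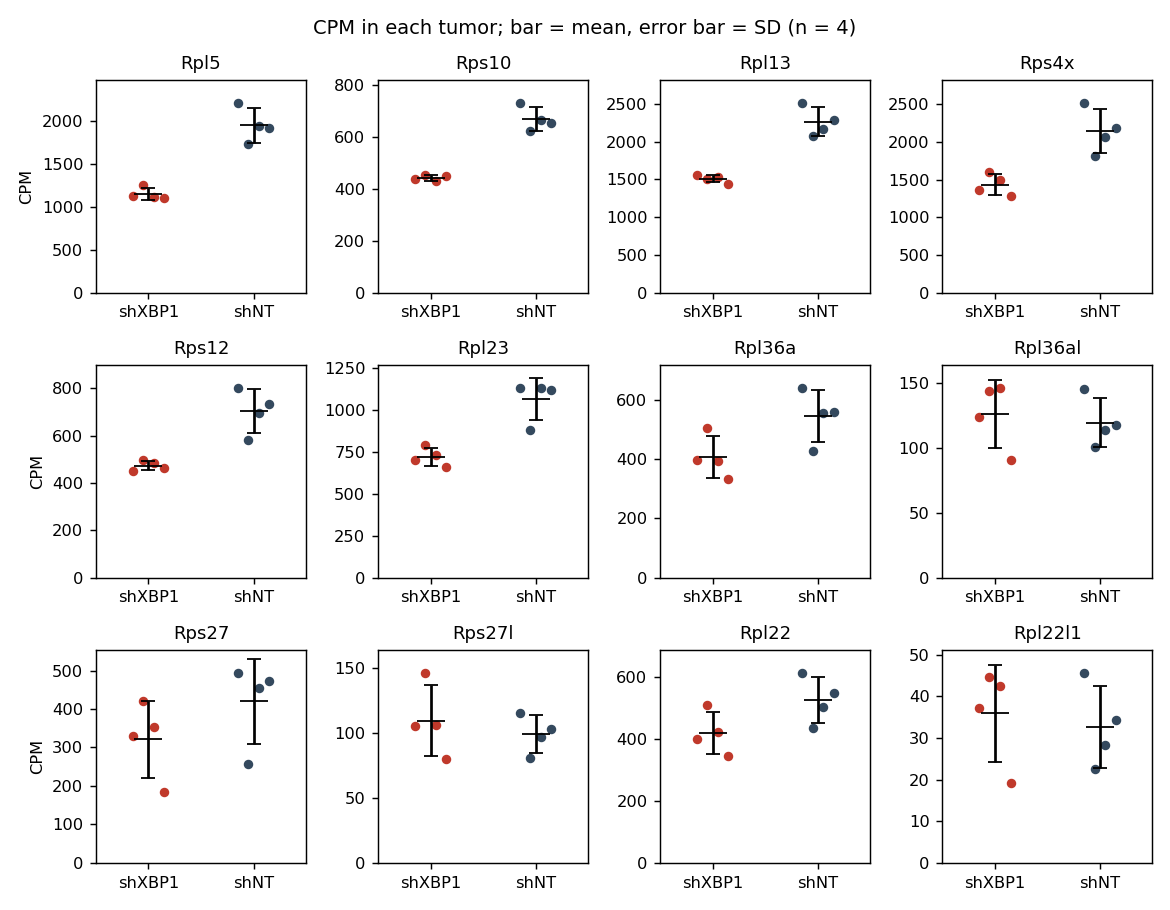
CPM in each tumor (vertical axis from 0) for the 6 called genes with the largest decrease and for 3 pairs of a ribosomal protein gene and its paralog, with shXBP1 left of shNT in each panel. Points are tumors, horizontal bars are means and error bars are SD (n = 4). Rpl5, Rps10, Rpl13, Rps4x, Rps12 and Rpl23 separate the groups, while Rpl36al, Rps27l and Rpl22l1 overlap.

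Paralogs were compared with their parent genes, since several can replace them in the ribosome. How the authors' counting treated reads shared by such near-identical copies is not stated, so the split between copies is uncertain. Rpl36al, an autosomal copy of the X-linked Rpl36a, had 123, 144, 146 and 90.3 CPM in the shXBP1 tumors, against 145, 101, 114 and 117 CPM in the shNT tumors (log2 fold change 0.08 ± 0.15 SE, adjusted p 0.743, edgeR). Rpl36a had 396, 505, 395 and 335 CPM in the shXBP1 tumors, against 641, 426, 555 and 558 CPM in the shNT tumors, and was narrowly called lower (log2 fold change -0.42 ± 0.14 SE, adjusted p 0.0403, edgeR). This call was lost in 6 of the 8 fits that left out 1 tumor. The log2 ratio of Rpl36al to Rpl36a was -1.68, -1.81, -1.43 and -1.89 in the shXBP1 tumors, against -2.14, -2.08, -2.29 and -2.25 in the shNT tumors. The groups did not overlap in this ratio, with a difference of 0.49 and an exact permutation p of 0.0286, the smallest that 4 tumors against 4 can give in a two-sided test.

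Rps27l, which is a p53 target, had 105, 146, 106 and 79.97 CPM in the shXBP1 tumors, against 115, 80.6, 97.1 and 103 CPM in the shNT tumors and was not called (log2 fold change 0.14 ± 0.17 SE, adjusted p 0.564, edgeR). Its log2 ratio to Rps27 averaged -1.53 ± 0.23 in shXBP1 tumors and -2.05 ± 0.26 in shNT tumors (SD, n = 4 each, exact permutation p = 0.0571). Rpl22l1, which in mouse is held down by Rpl22, had 37.2, 44.7, 42.5 and 19.2 CPM in the shXBP1 tumors, against 45.6, 22.6, 28.2 and 34.3 CPM in the shNT tumors (log2 fold change 0.13 ± 0.30 SE, adjusted p 0.778, edgeR). Rpl22 itself averaged 418 ± 67.7 CPM in shXBP1 tumors and 525 ± 74.6 CPM in shNT tumors (log2 fold change -0.33 ± 0.13 SE, adjusted p 0.0723, edgeR). The log2 ratio of Rpl22l1 to Rpl22 averaged -3.60 ± 0.39 in shXBP1 tumors and -4.04 ± 0.23 in shNT tumors (SD, n = 4 each, exact permutation p = 0.114).

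Rpl7l1 had the smallest SE of the tested paralogs, with 139, 140.4, 147 and 137 CPM in the shXBP1 tumors, against 154, 137, 145 and 146 CPM in the shNT tumors (log2 fold change -0.05 ± 0.07 SE, adjusted p 0.648, edgeR). Its log2 ratio to Rpl7 averaged -3.31 ± 0.22 in shXBP1 tumors and -3.59 ± 0.12 in shNT tumors (SD, n = 4 each, exact permutation p = 0.114). Over the 4 ratios every Benjamini-Hochberg adjusted p was 0.114, so none passed, although each had a higher mean in shXBP1 tumors. These ratios were tested only after their values were known.

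Rpl39l, known as a testis form of Rpl39, was near the limit of detection, with 0.542, 0.804, 1.24 and 0.482 CPM in the shXBP1 tumors, against 1.20, 0.284, 0.347 and 1.09 CPM in the shNT tumors (log2 fold change 0.07 ± 0.51 SE, adjusted p 0.937, edgeR). Rpl3l, the striated muscle form of Rpl3, was at most 0.319 CPM in shXBP1 tumors and at most 0.441 CPM in shNT tumors, with 45 counts in all, and did not pass the filter. Rpl10l, a retrocopy of Rpl10 used in spermatogenesis, had 0 counts in all 8 tumors. Rps27rt, a further Rps27-like name outside the rule for named genes, had 85.2, 71.5, 65.8 and 110.1 CPM in the shXBP1 tumors, against 81.6, 82.96, 48.03 and 57.6 CPM in the shNT tumors and was not called (log2 fold change 0.30 ± 0.21 SE, adjusted p 0.323, edgeR). Rps19bp1 averaged 51.1 ± 5.90 CPM in shXBP1 tumors and 58.4 ± 6.38 CPM in shNT tumors (log2 fold change -0.19 ± 0.10 SE, adjusted p 0.184, edgeR, overlapping).

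Levels per length were taken from the authors' FPKM values (counts scaled to gene length and library size). The 5 highest means over all tumors were those of Rplp1, Rps2, Rpl13, Rpl13a and Rplp0. Rplp1 averaged 2301 ± 43.4 FPKM in shXBP1 tumors and 2935 ± 277 FPKM in shNT tumors, and Rps2 averaged 1851 ± 200.5 FPKM in shXBP1 tumors and 2475 ± 86.9 FPKM in shNT tumors (SD, n = 4 each). The 5 lowest were Rpl10l, Rpl3l, Rpl39l, Rpl7l1 and Rpl22l1, all of them paralogs. Rpl22l1 averaged 57.7 ± 16.8 FPKM in shXBP1 tumors and 53.3 ± 15.1 FPKM in shNT tumors, and Rpl7l1 averaged 47.99 ± 1.996 FPKM in shXBP1 tumors and 49.6 ± 1.32 FPKM in shNT tumors. Among the canonical genes the FPKM depends on the transcript length the authors used, which the sources used here do not state.

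Within each group the ribosomal protein genes moved together from tumor to tumor. Among shXBP1 tumors, tumor 4 was the lowest of the group in 58 of 84 genes and tumor 2 the highest in 56. Among shNT tumors, tumor 2 was the lowest in 78 of 84 and tumor 1 the highest in 63. The deviation was greatest in the shortest coding sequences. For the 30 genes with a coding length under 400 nt, the median deviation from the group mean was -0.32 log2 CPM in shXBP1 tumor 4 and -0.33 in shNT tumor 2. For the 21 genes from 600 to under 1000 nt it was -0.07 in shXBP1 tumor 4 and -0.14 in shNT tumor 2. Other genes tested showed the same order, with -0.16 in shXBP1 tumor 4 and -0.13 in shNT tumor 2 among 739 genes under 400 nt, and 0.04 and 0.03 in these 2 tumors among 9021 genes of 1000 nt and over.

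The calls followed this gradient of length. Of genes under 400 nt 8 of 30 were called lower, of those from 400 to under 600 nt 16 of 31, of those from 600 to under 1000 nt 16 of 21, and of those of 1000 nt and over 2 of 2. The median log2 fold changes in the first 3 classes were -0.32, -0.31 and -0.41, while the median SE was 0.15, 0.11 and 0.09. Among other genes tested 7.44%, 11.8%, 13.2% and 14.3% were called lower in the same 4 classes. Without shXBP1 tumor 4 and shNT tumor 2 the count was 54 lower and 1 higher (Rps29), beside 13.1% of all genes called lower. With a smooth trend on coding length removed from each library it was 60 lower and 0 higher, beside 15.3% of all genes. Both fits were added after the data had been seen, and each kept the 42 calls.

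**Figure D4:**
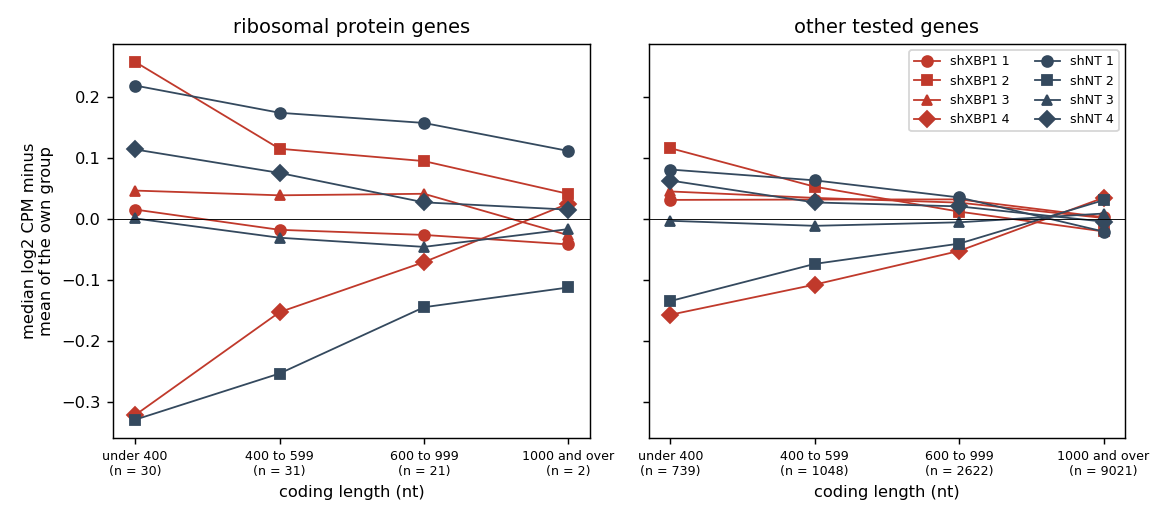
Median log2 CPM minus the mean of the tumor's own group (vertical axis) by class of coding length (horizontal axis), for ribosomal protein genes and for other genes tested; n is the number of genes. Lines are tumors, red for shXBP1 and dark for shNT. In both panels shXBP1 tumor 4 and shNT tumor 2 are the lowest of their groups in the shortest class, and their deviation shrinks as length grows. In the longest class of other genes tested, both are the highest of their groups. In the longest class of ribosomal protein genes, shNT tumor 2 is still the lowest of its group and shXBP1 tumor 4 is not.

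Genes that work with ribosomal proteins were examined through 4 lists, to be read against the 13.1% of all genes tested that were called lower and the 16.9% called higher. Of 70 ribosome biogenesis genes 38 were called lower and 0 higher, with a median log2 fold change of -0.28. Noc2l, a nucleolar factor in large-subunit assembly, averaged 173 ± 13.2 CPM in shXBP1 tumors and 288 ± 22.9 CPM in shNT tumors (log2 fold change -0.74 ± 0.09 SE, adjusted p 9.99e-05, edgeR, SD, n = 4 each). Npm1, the abundant nucleolar chaperone, averaged 799 ± 114 CPM in shXBP1 tumors and 1261 ± 123 CPM in shNT tumors (log2 fold change -0.66 ± 0.12 SE, adjusted p 0.00128, edgeR). Dkc1, the pseudouridine synthase of ribosomal RNA, averaged 100.2 ± 10.1 CPM in shXBP1 tumors and 151 ± 17.9 CPM in shNT tumors (log2 fold change -0.60 ± 0.10 SE, adjusted p 0.00113, edgeR), and Tsr1, a small-subunit assembly factor, was lower too (log2 fold change -0.50 ± 0.08 SE, adjusted p 0.000861, edgeR). The count of biogenesis genes dropped to 24, 25 and 25 when shXBP1 tumor 1, shNT tumor 2 or shNT tumor 3 was left out, beside 9.49%, 8.9% and 8.57% of all genes.

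Elongation factors and other mRNAs with a known TOP tract shared the direction, with 16 of 22 called lower, 0 higher and a median of -0.34. Eef1g, a subunit of the elongation factor 1 complex, had 495, 459, 530.0 and 455 CPM in the shXBP1 tumors, against 961, 939.8, 1016 and 963 CPM in the shNT tumors. Its groups lay far apart (log2 fold change -1.001 ± 0.08 SE, adjusted p 1.07e-05, edgeR). Eef1b2, the exchange factor of the same complex, averaged 520.1 ± 10.8 CPM in shXBP1 tumors and 889 ± 61.96 CPM in shNT tumors (log2 fold change -0.77 ± 0.08 SE, adjusted p 4.19e-05, edgeR, SD, n = 4 each). Rack1, a scaffold on the head of the small subunit, averaged 1478 ± 90.2 CPM in shXBP1 tumors and 2253 ± 189 CPM in shNT tumors (log2 fold change -0.61 ± 0.09 SE, adjusted p 0.000428, edgeR), and Eif4b, which helps the helicase Eif4a, was lower as well (log2 fold change -0.51 ± 0.08 SE, adjusted p 0.000583, edgeR). Fau makes the ribosomal protein Rps30 as a fusion to a ubiquitin-like protein, and lies outside both rules on names. Fau averaged 513 ± 46.2 CPM in shXBP1 tumors and 676 ± 69.02 CPM in shNT tumors (log2 fold change -0.40 ± 0.10 SE, adjusted p 0.00916, edgeR).

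Of 29 translation initiation factors 12 were called lower and 1 higher, with a median of -0.21. Eif5a, a factor that carries the modified residue hypusine, averaged 876 ± 40.00 CPM in shXBP1 tumors and 1276 ± 69.2 CPM in shNT tumors (log2 fold change -0.54 ± 0.08 SE, adjusted p 0.000418, edgeR, SD, n = 4 each). Eif2b3 and Eif2b5, subunits of the exchange factor of Eif2, and Eif3a, a scaffold subunit of Eif3, had log2 fold changes of -0.48, -0.31 and -0.38 (adjusted p 0.00274, 0.00815 and 0.00485, edgeR). Of 37 regulators of ribosomal protein synthesis 9 were called lower (24.3%) and 5 higher (13.5%), the second share being below that of all genes tested. Rps6kb1, the S6 kinase, was at 49.3, 48.7, 49.4 and 43.7 CPM in the shXBP1 tumors, against 70.2, 69.9, 67.2 and 69.2 CPM in the shNT tumors (log2 fold change -0.53 ± 0.07 SE, adjusted p 0.000293, edgeR). Mxd1, a Max partner that opposes Myc, was at 29.2, 28.4, 24.98 and 29.2 CPM in the shXBP1 tumors, against 12.6, 7.82, 9.84 and 10.8 CPM in the shNT tumors (log2 fold change 1.44 ± 0.14 SE, adjusted p 2.55e-05, edgeR). Sesn3, an inhibitor of mTORC1 signalling, and Rps6ka1, a kinase downstream of ERK, were also higher, with log2 fold changes of 0.66 and 0.64 (adjusted p 0.000444 and 0.000862, edgeR). The related inhibitor Sesn2 and the related kinase Rps6ka2, named after their values were seen, were called lower, at -0.78 and -0.84. Sesn1 was not called, at 0.22.

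With Ptprc as a covariate, 1 biogenesis gene, 3 genes of the TOP list, 0 initiation factors and 0 regulators were called lower. In that fit only 0.711% of all genes were called lower. Without shNT tumor 2 or shNT tumor 3, 5 regulators were called lower, beside 8.9% and 8.57% of all genes. With tumor number as a block 7 initiation factors were called lower, beside 8.75% of all genes.

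Mitochondrial ribosomal protein genes, which encode the separate ribosome of mitochondria, were set beside the cytosolic ones. Of 78 such genes 15 were called lower (19.2%) and 1 higher, with a median log2 fold change of -0.08, beside 13.1% of all genes tested called lower. The cytosolic genes had 50% called lower and a median of -0.35. This difference between the lists was not tested.

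**Figure D5:**
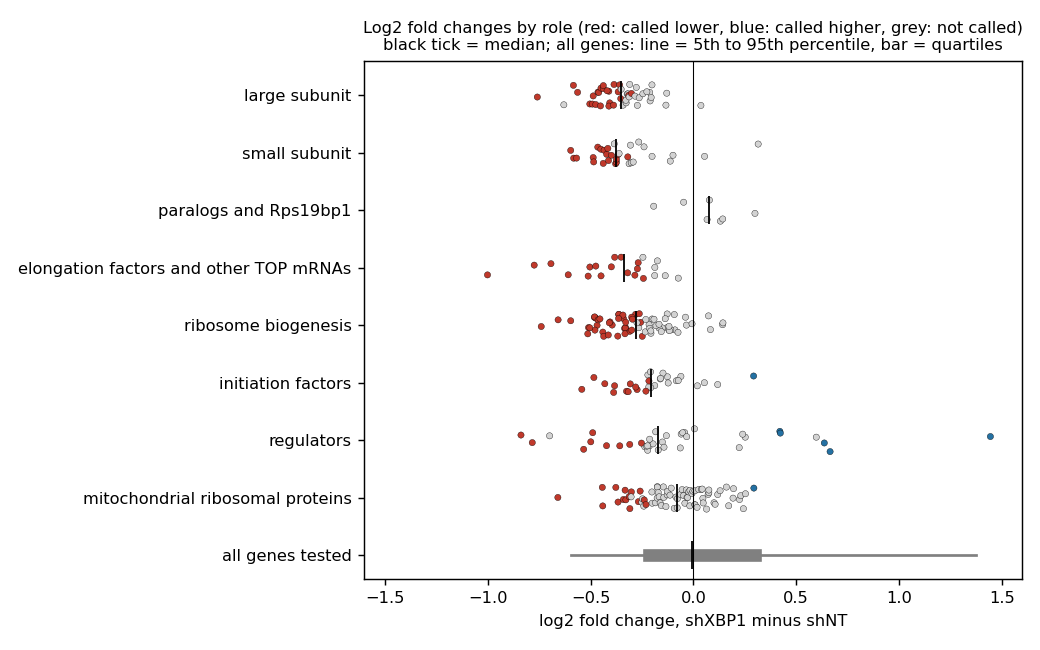
Log2 fold changes, shXBP1 minus shNT (horizontal axis), of ribosomal protein genes by subunit and of the related lists. Points are genes, red where called lower in shXBP1, blue where called higher and grey where not called; black ticks are medians, and the lowest row gives the spread of all 14907 genes tested. Large-subunit and small-subunit genes have medians of -0.35 and -0.37, and mitochondrial ribosomal protein genes a median of -0.08.

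Table entries outside the rule that the authors assign to the KEGG ribosome pathway, other than mitochondrial ones, numbered 66, of which 37 were loci listed as new. Their summed level was 2467 ± 139 CPM in shXBP1 tumors and 3135 ± 350 CPM in shNT tumors (SD, n = 4 each). Of 44 tested 9 were called lower and 2 higher, beside 13.1% and 16.9% of all genes tested. Adding counts of named pseudogenes to their parent gene left 42 genes called lower, beside 13.1% of all genes tested. Small nucleolar RNA genes on the strand of the host lie inside 18 of the 42 genes called lower and inside 12 of the 42 tested genes not called. The sources used here do not state how reads of such embedded genes were assigned, or whether counting used strand. Reads of embedded genes, or of antisense genes, which were not counted here, therefore cannot be told apart from those of the host. In the authors' deposited table, 83 of the 86 genes have a value, 49 have an FDR of at most 0.05, all of them lower, and 0 reach 2-fold at an FDR under 0.01. All 42 genes called here have the same sign in the authors' deposited table.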

How the data were processed

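Whole-tumor RNA-seq of 4 shXBP1 and 4 shNT tumors was used, grouped by the genotype in the labels. The deposited table holds whole-number counts and FPKM per tumor, per the file headers, with the authors' own DESeq2 comparison (log2 fold change and FDR). Per the submitters' processing notes the genome build was GRCm38. Aligner, counter, strand setting and annotation are not stated in the sources used here. The filterByExpr step of edgeR left 14907 genes. Counts were scaled by TMM factors (0.980 to 1.04) and compared with edgeR 4.0.16 in R 4.3.3 (quasi-likelihood, robust, no covariate, two-sided, Benjamini-Hochberg over all genes tested, threshold 0.05). CPM values are TMM-scaled. The test was checked on simulated data. Coordinates and coding lengths are from GENCODE M21, which matched 22022 of 22036 identifiers. Alternatives used DESeq2 1.42.0, limma 3.58.1, other scalings, filters, covariates and omitted tumors.

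The members and lists were chosen with earlier results of these data known. Named were the 6 called genes per direction with the largest change, fixed paralogs (Rps4l had no entry) and 7 fixed genes, the 5 highest and 5 lowest by FPKM, genes with 1 tumor far from its group, and up to 4 genes per list by smallest p. Gnb2l1, Gas5, Snhg1 and Znf622 had no entry under those symbols. No pair of libraries agreed within sampling noise (lowest chi-square per degree of freedom 16.5 within a group). Some genes that enter the counts are not reported here by name.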

Additional observations from a re-analysis of the deposited data

Results flagged for a closer look

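Each group of 4 tumors was checked, for each of 83 tested genes, for 1 tumor far from the other 3 (Dixon's test). Of 166 groups 5 held such a tumor, and chance alone gives about 1 in 20. Rpl5 was high in shXBP1 tumor 2, at 1259 CPM, against 1108 to 1133 CPM in the other shXBP1 tumors. Rps28 was low in shXBP1 tumor 4, at 134 CPM, while the other shXBP1 tumors had 209 to 220.3 CPM. Rpl23, Rps23 and Rps27 were low in shNT tumor 2, at 879, 648 and 256 CPM, while the other shNT tumors had at least 1115, 837 and 455 CPM of them.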

How the results depend on the processing

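The count of 42 genes lower lay within 1.5 times under every alternative run, at 42 with median-of-ratios size factors, with TMM factors computed without these genes, with limma voom and with pseudogene counts added. Of all genes tested, 13.1%, 13.6%, 13.1% and 13.1% were called lower in those fits. The count was 43 with library totals only, 41 without a filter, 37 of 83 with a filter of 10 CPM in 4 libraries, and 49 with DESeq2. The share of all genes called lower in these fits was 10.8%, 8.31%, 13.1% and 15.2%. Between same-numbered tumors of the 2 groups, deviations from the own group mean correlated across genes at -0.07, -0.14, -0.02 and -0.06. With 4 tumors per group these values cannot decide whether the numbers of the labels pair the tumors. With the replicate block 32 genes were lower and 0 higher, beside 8.75% of all genes called lower, and the initiation factors lower fell to 7. Leaving out each tumor in turn gave 34 to 53 lower, beside 8.57% to 15.9% of all genes, and 0 higher. The medians were -0.41 to -0.26, and 33 genes were called in all 8 such fits. The median moved to -0.80 with Ptprc as a covariate. That fit turned Rpl22l1 (-1.59), Rpl36al (-0.85), Rpl39l (-1.57), Rps27l (-0.86) and Rps28 (-1.19) negative. It also ended the calls of Rps10, Rpl13, Rps12, Rps6, Rps2, Rpsa, Rplp0, Rplp1, Rpl3 and Rpl10. It left 1 biogenesis gene, 3 TOP genes and 0 initiation factors lower, beside 0.711% of all genes. The cause was not tested. Rpl5, Rpl19, Rpl23, Rpl36 and Rps4x were called lower in every fit. Without shXBP1 tumor 4 and shNT tumor 2, 1 gene was higher and Rpl39l was at -0.03; with the length offset Rpl39l was at -0.013 and Rps28 at -0.019. Leaving out 1 tumor gave ranges that crossed 0 for Rpl22l1 (-0.012 to 0.35), Rpl36al (-0.0015 to 0.21), Rpl39l (-0.27 to 0.41), Rps27l (-0.027 to 0.27) and Rps28 (-0.13 to 0.21). The ratio of Rpl36al to Rpl36a stayed positive (0.40 to 0.55) but could not pass with 3 tumors in a group, where the smallest exact permutation p is 0.0571. Rplp1 was not called with the replicate block. Levels of Rpl39l and Rpl3l, below 2 CPM, are limited by depth.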
